A study of Mus musculus with 8 samples.

Results

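The 9 genes described here are core components of the Hedgehog pathway: the ligands Ihh and Dhh, the ligand trap Hhip, the receptor Ptch1, the transducer Smo, the Gli inhibitor Sufu and the transcription factors Gli1, Gli2 and Gli3. They were found by their symbols in the platform annotation, which names 22 probe sets for them and 18194 genes in all. The brightest probe set of each gene, by its mean signal, was used, and the others served as a check. RNA was measured on Affymetrix mouse arrays in mammary epithelial cells sorted by FACS from glands of wildtype (WT) mice and of mice with C/EBPb deleted in the germline (KO), a transcription factor needed for normal mammary development. Cells of both genotypes were sorted as LIN-CD24+CD29hi (CD29hi in the following) and LIN-CD24hiCD29lo (CD29lo), which gave 4 groups of 2 biological replicates. Glands came as 2 paired sets with 10 mice per group. Because the deletion is germline, every cell of the KO mouse lacks the factor, and the sources used here state neither the age of the mice nor which mice were pooled for an array. The study asked which signalling pathways depend on C/EBPb in these sorted subpopulations, taken there as stem and progenitor cells.

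In Hedgehog signalling, a secreted ligand binds Patched, which otherwise holds Smoothened inactive. Active Smoothened acts through the primary cilium to free Gli proteins from Sufu, and Gli factors then switch on target genes, among them the genes for Patched and Gli1 themselves. Without ligand, Gli3 and part of Gli2 are processed into repressors. In the mammary gland the pathway is known for signalling between epithelium and stroma, and repression by Gli3 is needed for some mammary buds to form in the embryo.

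Signals are given on the deposited log2 scale. Array medians lay between 5.45 and 5.67, and the 2 arrays of a group correlated at 0.931 to 0.954. Each array's background, the 95th percentile of its 27 bacterial control probe sets, was 3.84 to 4.41. Cebpb, the deleted gene, read 11.83 to 12.25 in the 4 WT arrays and 8.60 to 9.38 in the 4 KO arrays. Its KO signal was thus lower but still well above the background. Of the basal markers, 12 of 14 were higher in CD29hi, where 12.2% of all genes tested were, with a median difference of 4.51. All 15 luminal markers tested were lower, where 10.8% of all genes were, with a median of -2.72. CD29hi thus carried basal and CD29lo luminal marker signal. Fibroblast markers were present as well: their mean was 7.57 to 10.93 in the CD29lo arrays and 5.84 to 7.32 in the CD29hi arrays, none was at 0, and 11 of 15 were lower in CD29hi and 1, Postn, higher. In sorted bulk cells, fewer cells of a type and less RNA per cell cannot be told apart.

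Of the 9 genes, 8 had a mean signal above the limit for testing (3.51), and Ihh did not. The clearest pattern was between the gates. With both genotypes averaged, Dhh, Gli3, Sufu and Smo were higher in CD29hi and Ptch1 was lower, so that 5 of the 8 genes tested passed the threshold (limma, Benjamini-Hochberg adjusted p under 0.05 over all genes), against 22.9% of all genes tested. With the mean of all probe sets in place of the brightest one, 6 of the genes could be tested and 2 passed, Smo and Gli3: Ptch1 and Sufu lost their calls and Dhh was not tested. The 5 genes also had no overlap between the arrays of the gates, which 13.2% of all genes showed with CD29hi above and 12.1% with CD29hi below. The median difference of the 8 genes was 1.02, and that of all genes tested was 0.01. Between KO and WT, 0 of the 8 passed in either gate.

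**Figure D1:**
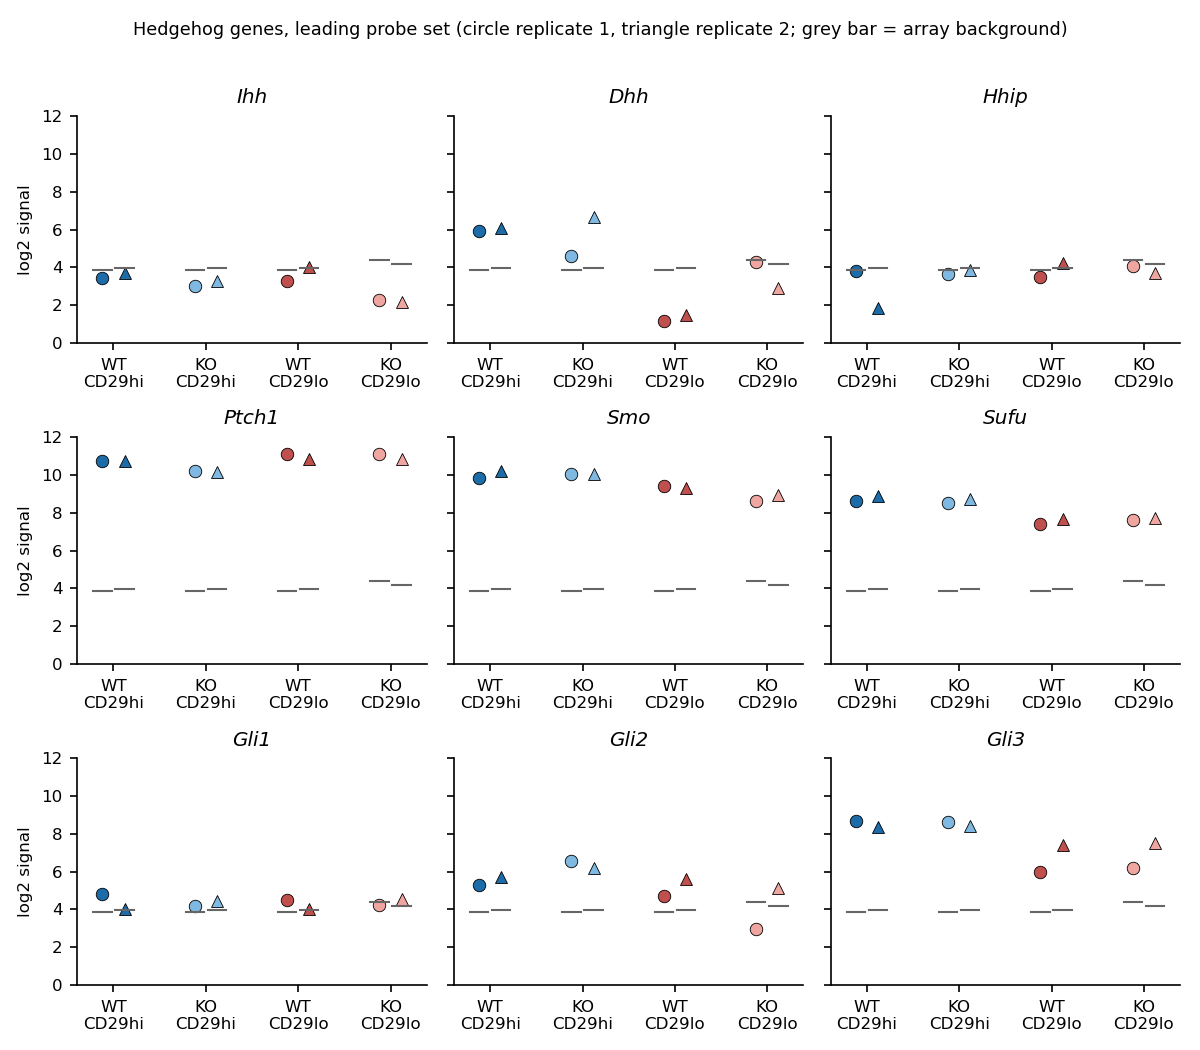
Log2 signal of the leading probe set of each of the 9 Hedgehog genes (y axis) in the 4 groups (x axis); circles are replicate 1, triangles replicate 2, and grey bars the background of each array. Dhh lies above the background in the 4 CD29hi arrays only, Gli3, Sufu and Smo are higher in CD29hi than in CD29lo, and Ihh, Hhip and Gli1 stay near the background.

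The promoters of the 5 genes that differed between the gates are shown because these are the genes on which the comparison of the gates turns. Start sites were taken from RefSeq (GRCm38.p6), where 8 of the 9 genes were matched in the table used here. The windows printed here are the 250 bases before the start, 5′ to 3′ on the gene's strand. Dhh lies at chr15:98898541-98898790 (minus strand), Ptch1 at chr13:63565736-63565985 (minus), Smo at chr6:29735247-29735496 (plus), Sufu at chr19:46396646-46396895 (plus) and Gli3 at chr13:15463473-15463722 (plus). Both strands were searched for the Gli consensus GACCACCCA, the C/EBP palindrome TTGCGCAA and the looser C/EBP pattern TTGCNNAA, which the palindrome also matches. The GC box was searched as GGGCGG. The last motif was the CCAAT box, spelled as its name. Capitals mark every match.
Dhh: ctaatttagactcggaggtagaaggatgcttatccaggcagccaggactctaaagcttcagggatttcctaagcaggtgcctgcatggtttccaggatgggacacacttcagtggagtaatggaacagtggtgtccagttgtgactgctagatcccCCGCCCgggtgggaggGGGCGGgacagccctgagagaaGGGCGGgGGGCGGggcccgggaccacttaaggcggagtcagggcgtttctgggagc
Ptch1: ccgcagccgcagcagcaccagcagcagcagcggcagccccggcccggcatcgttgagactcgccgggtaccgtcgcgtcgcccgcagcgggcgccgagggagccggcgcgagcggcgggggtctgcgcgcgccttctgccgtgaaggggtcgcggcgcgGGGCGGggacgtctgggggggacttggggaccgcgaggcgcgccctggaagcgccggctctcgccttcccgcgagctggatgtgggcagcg
Smo: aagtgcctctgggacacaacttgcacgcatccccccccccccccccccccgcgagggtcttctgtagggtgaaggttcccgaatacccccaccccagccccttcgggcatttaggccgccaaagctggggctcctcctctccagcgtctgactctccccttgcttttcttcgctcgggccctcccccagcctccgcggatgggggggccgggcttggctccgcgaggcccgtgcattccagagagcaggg
Sufu: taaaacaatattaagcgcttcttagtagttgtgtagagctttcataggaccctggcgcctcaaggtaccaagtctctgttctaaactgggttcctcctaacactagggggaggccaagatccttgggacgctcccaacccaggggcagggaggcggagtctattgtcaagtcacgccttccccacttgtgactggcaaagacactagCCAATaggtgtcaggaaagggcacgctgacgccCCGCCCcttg
Gli3: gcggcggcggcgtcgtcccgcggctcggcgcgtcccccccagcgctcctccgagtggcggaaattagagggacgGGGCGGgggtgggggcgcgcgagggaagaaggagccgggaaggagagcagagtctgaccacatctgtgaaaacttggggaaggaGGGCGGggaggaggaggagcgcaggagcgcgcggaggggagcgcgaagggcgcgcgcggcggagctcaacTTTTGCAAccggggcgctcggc

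A GC box stood in 7 of the 8 windows, Smo being the exception, against 32.7% of the 32851 RefSeq windows of this length. Those windows were not matched for GC content. GC content was 78.4% for Ptch1, 72.8% for Gli3, 68.4% for Smo, 59.6% for Dhh and 54% for Sufu, and the median of all windows was 52.4%. The Gli consensus was in 0 of the 8 windows (0.225% of all), although Ptch1 is a known Gli target; these letters are not in this stretch. The C/EBP palindrome was also in 0 (0.164% of all). The looser C/EBP pattern occurred in 2 windows, those of Gli2 and Gli3, against 9.56% of all windows. A CCAAT box occurred in 1, that of Sufu, against 33.8%.

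Dhh (Desert hedgehog), a ligand best known from Schwann and Sertoli cells, was the only ligand with signal above the background in both arrays of any group. It read 5.92 and 6.07 (WT) and 4.61 and 6.67 (KO) in CD29hi, against 1.17 and 1.46 (WT) and 4.28 and 2.90 (KO) in CD29lo. All 4 CD29hi arrays were above every CD29lo array, and all 4 CD29lo arrays were at or below the background. The difference between gates was 3.36 ± 0.523 on the log2 scale (± standard error, here and in the following; limma adjusted p = 0.00268). Since the CD29lo signal is only a bound, the fold is at least 3.28, with each CD29lo array raised to its background. Within WT cells the difference was 4.68 ± 0.74, at least 4.21-fold (limma adjusted p = 0.00738), and it no longer passed without WT CD29hi replicate 2 (adjusted p = 0.0571) or with all values raised to at least 4 (difference 1.99, adjusted p = 0.0806). In KO cells it was 2.05 ± 0.74 and did not pass (adjusted p = 0.106).

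The leading Dhh probe set carries this result alone, since the other one was at or below the background on all 8 arrays. Schwann cell markers went both ways: of 3 tested, 1 was higher and 2 lower in CD29hi (12.2% and 10.8% of all genes). The log2 of the summed signal of the 6 with a probe set (their summed level) was 10.93 to 11.14 in CD29hi arrays. In CD29lo arrays it was 11.89 to 12.19.

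Ihh (Indian hedgehog) read 3.46 and 3.69 (WT) and 3.01 and 3.27 (KO) in CD29hi, against 3.27 and 4 (WT) and 2.30 and 2.17 (KO) in CD29lo. Only WT CD29lo replicate 2 was above its background, so Ihh was not reliably detectable and no difference was tested. Shh (Sonic hedgehog), the ligand outside the 9 genes, was at or below the background in all 8 arrays, with values of 0 to 2.49. Hhip, a membrane protein that captures ligand, read 3.82 and 1.85 (WT) and 3.67 and 3.84 (KO) in CD29hi, against 3.48 and 4.23 (WT) and 4.07 and 3.72 (KO) in CD29lo. It was above the background on 1 array, and its other 3 probe sets on 0, so its differences carry no information on level.

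Ptch1, the ligand receptor that inhibits Smoothened and is itself a Gli target, was expressed in every array. Its signal was 10.75 and 10.71 (WT) and 10.22 and 10.13 (KO) in CD29hi, against 11.09 and 10.82 (WT) and 11.11 and 10.85 (KO) in CD29lo. All 4 CD29hi arrays were below all 4 CD29lo arrays, with the KO CD29hi pair lowest. Averaged over genotypes Ptch1 was lower in CD29hi by a log2 difference of -0.52 ± 0.114 (1.43-fold, limma adjusted p = 0.0136). This was the opposite direction to Dhh, Smo, Sufu and Gli3. The call was lost without WT CD29lo replicate 1 (adjusted p = 0.0542), with the mean of all probe sets (-0.86, adjusted p = 0.0646) and with eBayes run without a trend (adjusted p = 0.0652). In KO cells the difference was -0.81 ± 0.161 (1.75-fold, adjusted p = 0.0135), lost when any of 3 arrays was left out: KO CD29hi replicate 1 (adjusted p = 0.0709), KO CD29hi replicate 2 (0.0773) or KO CD29lo replicate 1 (0.0687). It also missed the threshold with the mean of all probe sets (-1.38, adjusted p = 0.0579) and without a trend (0.0693). In WT cells it was -0.23 ± 0.161 (adjusted p = 0.471). Whether the gate difference itself differed between genotypes was tested by the interaction, -0.58 ± 0.227, which had an unadjusted p of 0.0331 and did not pass (limma adjusted p = 0.961). The other 2 Ptch1 probe sets were above the background on 4 and 3 of 8 arrays and gave gate differences of -0.93 and -1.15. The one with -0.93 had a mean of 3.45, under the limit for testing. The one with -1.15 did not pass (limma adjusted p = 0.33, all probe sets tested), and its KO CD29hi arrays read 0.22 and 3.69. Both are too near the background to check the leading probe set.

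Smo (Smoothened) passes the signal from Patched into the cell. Its signal was 9.83 and 10.18 (WT) and 10.07 and 10.06 (KO) in CD29hi, against 9.39 and 9.29 (WT) and 8.62 and 8.93 (KO) in CD29lo. The CD29hi arrays lay above the CD29lo arrays without overlap, and the KO CD29lo pair was lowest. The averaged gate difference was 0.98 ± 0.154, or 1.97-fold (limma adjusted p = 0.00282), and it passed with each array left out in turn (0.89 to 1.07, adjusted p 0.00400 to 0.0163). It was 1.29 ± 0.217 in KO cells (2.45-fold, adjusted p = 0.00685; 0.0595 without KO CD29hi replicate 1) and 0.66 ± 0.217 in WT cells (adjusted p = 0.112). A second probe set of Smo gave a gate difference of 1.18 (limma adjusted p = 0.00833, with all 27549 probe sets above the limit tested). The third gave 0.47 (adjusted p = 0.3). By genotype the second gave 0.97 in WT and 1.39 in KO, whereas the third gave 0.88 in WT and 0.07 in KO.

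Sufu (Suppressor of fused) binds Gli proteins and holds them outside the nucleus. It read 8.60 and 8.87 (WT) and 8.52 and 8.70 (KO) in CD29hi, against 7.41 and 7.65 (WT) and 7.61 and 7.74 (KO) in CD29lo. The gates were apart by more than the spread of either, and the genotypes overlapped within each gate. The averaged gate difference was 1.07 ± 0.191, or 2.1-fold (limma adjusted p = 0.00529), with 2.31-fold in WT (adjusted p = 0.0304) and 1.91-fold in KO (0.0545). Its probe sets disagreed: a second one gave 1.01 (adjusted p = 0.0683), while the third, above the background on 6 of 8 arrays, gave -1.11 (0.0819). With the mean of the 3 probe sets in place of the leading one the averaged difference was 0.33 (adjusted p = 0.395) and the WT difference 0.10 (0.908). The WT call was also lost in 6 of 8 fits with 1 array left out: without WT CD29hi replicate 1 (adjusted p = 0.0861) or 2 (0.165), KO CD29hi replicate 1 (0.0606) or 2 (0.0601), and WT CD29lo replicate 1 (0.149) or 2 (0.0788). It was lost as well with only the WT arrays in the fit (0.067).

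Gli3, which acts mainly as the repressor of the pathway, was the Gli factor with the clearest gate difference. Its signal was 8.66 and 8.35 (WT) and 8.60 and 8.42 (KO) in CD29hi, against 5.95 and 7.41 (WT) and 6.17 and 7.51 (KO) in CD29lo. The CD29hi arrays of both genotypes read between 8.35 and 8.66, while the 2 arrays of each CD29lo group were more than 1 log2 unit apart. Averaged over genotypes Gli3 was higher in CD29hi by 1.75 ± 0.399, or 3.36-fold (limma adjusted p = 0.0155). It missed the threshold without WT CD29hi replicate 1 (1.67, adjusted p = 0.0584) or KO CD29hi replicate 1 (1.70, 0.058). The separate differences were 1.82 ± 0.564 in WT (adjusted p = 0.0941) and 1.67 ± 0.564 in KO (0.0878); each passed without replicate 2 of its own CD29lo group, at 2.55 (0.049) in WT and 2.34 (0.0424) in KO. The other Gli3 probe sets gave averaged gate differences of 1.66 (adjusted p = 0.00323, all probe sets tested) and 0.96 (0.139).

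Gli2, the main activator among the Gli factors, read 5.28 and 5.69 (WT) and 6.53 and 6.16 (KO) in CD29hi, against 4.69 and 5.61 (WT) and 2.98 and 5.11 (KO) in CD29lo. The gates overlapped in WT and did not in KO, where CD29lo replicate 1 was below the background. The averaged gate difference of 1.32 ± 0.487 did not pass (limma adjusted p = 0.0888). In KO it was 2.30 ± 0.689 (adjusted p = 0.0611) and in WT 0.33 ± 0.689 (0.83). Without KO CD29lo replicate 2 the averaged difference was 1.85 (adjusted p = 0.0116) and the KO difference 3.36 (0.0122). The other Gli2 probe set, above the background on 6 of 8 arrays, gave an averaged difference of 1.43. It did not pass either (limma adjusted p = 0.278, all probe sets tested).

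Gli1, a direct Gli target that is often read as a measure of pathway activity, stayed close to the background. It read 4.80 and 4.02 (WT) and 4.17 and 4.42 (KO) in CD29hi, against 4.49 and 4.04 (WT) and 4.25 and 4.53 (KO) in CD29lo. The 4 groups overlapped. The averaged gate difference was 0.03, with a 95% interval from -0.74 to 0.79. Signals this near the background do not show how large a change could have been missed.

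Within each genotype, the leading probe sets of Gli3 and Gli2 were higher in the CD29lo array with more fibroblast marker signal. Replicate 2 exceeded replicate 1 by 1.46 in WT CD29lo and 1.34 in KO CD29lo for Gli3, and by 0.92 and 2.13 for Gli2. The mean of the 15 fibroblast markers was higher in the same arrays by 1.68 and 2.68, and their summed level ran from 13.79 to 15.39 in WT CD29lo and from 12.27 to 14.89 in KO CD29lo. Gas1, a co-receptor, was higher in them by 1.37 and 1.44, whereas Ptch1 differed by -0.27 and -0.26. Over all genes tested, deviations of same-numbered arrays correlated at 0.321 between WT and KO CD29lo, so shared shifts were not limited to the genes named. Another Gli3 probe set read 5.03 and 6.58 (WT) and 4.92 and 5.80 (KO) in CD29lo. A further Gli3 probe set was not higher in the same way, with 6.23 and 6.28 (WT) and 5.69 and 5.05 (KO). Between genotypes, leading Gli3 signal in CD29lo was 5.95 and 7.41 in WT and 6.17 and 7.51 in KO. The fibroblast mean was 9.25 and 10.93 in WT and 7.57 and 10.25 in KO. With both CD29lo arrays numbered 2 left out, Gli3 differed between the gates by 2.45 and Gli2 by 2.08. The arrays left out had the higher CD29lo signal of both genes, so larger differences had to follow. The CD29hi arrays had less fibroblast signal and more Gli3 than the CD29lo arrays, which does not show how much fibroblast RNA adds within CD29lo. The part of fibroblast RNA in the CD29lo levels was not tested.

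**Figure D2:**
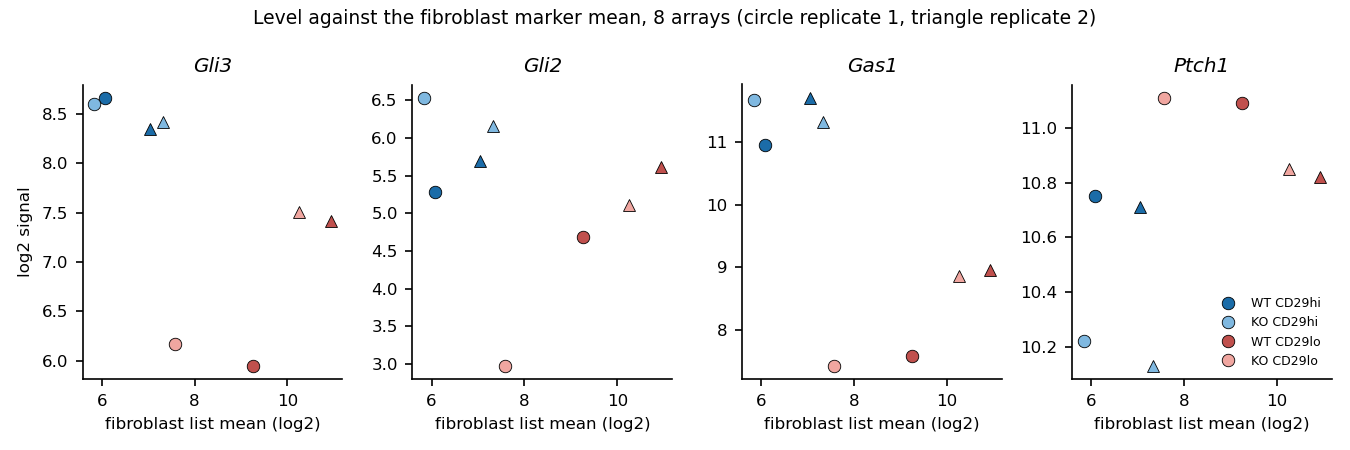
Log2 signal of Gli3, Gli2, Gas1 and Ptch1 (y axes, each on its own scale) against the mean log2 signal of the 15 fibroblast markers (x axis) in the 8 arrays; colours are groups, circles replicate 1 and triangles replicate 2. Signals are those of the leading probe sets. Within CD29lo the arrays numbered 2 have more fibroblast signal and more Gli3, Gli2 and Gas1 than those numbered 1 of the same genotype. The CD29hi arrays combine the lowest fibroblast means with the highest Gli3 and Gas1.

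Comparing KO with WT addressed the question of the study directly. None of the 8 genes passed the threshold in CD29hi, in CD29lo, averaged over the gates or in the interaction. The share of all genes tested that passed was 0.0137% in CD29hi, 0.0137% in CD29lo, 0.0685% on average and 0% in the interaction. At an unadjusted p under 0.05 there were 1, 2, 1 and 2 Hedgehog genes in these comparisons, and 1145, 975, 1353 and 722 genes in all. The median KO difference of the 8 genes was -0.05 in CD29hi and 0.08 in CD29lo, against -0.02 and -0.06 for all genes.

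In CD29hi, Ptch1 had the smallest p of the 8. Both KO arrays were below both WT arrays, with a difference of -0.55 ± 0.161 (unadjusted p = 0.00818, limma adjusted p = 0.424), and -0.60 to -0.51 with each array left out in turn. KO arrays lay wholly below WT arrays in CD29hi for 21.2% of all genes and wholly above for 18.3%, so this separation is common. Cell cycle genes were also low in the same arrays: 8 of 8 tested were below 0, with a median of -3.28. Of these, 0 passed and 7 had an unadjusted p under 0.05 in limma. The summed level of the 9 with a probe set was 8.14 to 8.97 in KO and 10.73 to 12.24 in WT. Luminal markers were also mostly low there: 12 of 15 were below 0 with a median of -0.18 (0 passed), and 7 had an unadjusted p under 0.05, of which Elf5 (-3.19), Csn3 (-1.79), Cd14 (-1.78), Ehf (-1.62) and Krt7 (-1.05) were lower in KO and Esr1 (0.90) and Foxa1 (0.96) higher. The summed level of the 15 was 13.69 to 13.84 in KO and 13.98 to 14.05 in WT, and none was at 0. The part of cell cycle state or of luminal RNA in the Ptch1 difference was not tested. Averaged over the gates Ptch1 differed by -0.26 ± 0.114 (unadjusted p = 0.0469, limma adjusted p = 0.533).

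Gli2 was the other gene whose CD29hi arrays did not overlap, with KO above WT by 0.86 ± 0.689 (limma adjusted p = 0.859). The remaining differences in CD29hi were 0.92 for Hhip, -0.35 for Dhh, -0.13 for Sufu, -0.11 for Gli1, 0.06 for Smo and 0.01 for Gli3. The 95% intervals were -0.44 to 0.56 for Smo, -0.75 to 0.50 for Sufu and -1.29 to 1.30 for Gli3. For these genes a KO effect of less than about that size cannot be read from these arrays.

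In CD29lo, Smo was lower in both KO arrays than in both WT arrays, by a difference of -0.57 ± 0.217 (unadjusted p = 0.0307, limma adjusted p = 0.683). Its second probe set differed by -0.46 and the third by 0.70, in the other direction. KO arrays lay wholly below WT arrays in this gate for 19.6% of all genes and wholly above for 14.7%. Dhh differed by 2.28 ± 0.74 (unadjusted p = 0.0146, adjusted p = 0.658), but all 4 arrays were at or below the background, so no fold is given; with values raised to at least 4 the difference was 0.14. For the same reason its interaction of -2.63 ± 1.05 (unadjusted p = 0.0351, adjusted p = 0.961) rests on signals that were not measurable in CD29lo. The other differences in CD29lo were -1.10 for Gli2, 0.16 for Gli3, 0.15 for Sufu, 0.12 for Gli1, 0.04 for Hhip and 0.03 for Ptch1. Markers of other cells moved in this gate as well. All 15 fibroblast markers were below 0 in KO, with a median of -1.23 (0 passed, and 0 had an unadjusted p under 0.05), and their summed level was 12.27 to 14.89 in KO and 13.79 to 15.39 in WT. Of 14 basal markers 10 were below 0, with a median of -0.30 (0 passed) and a summed level of 11.93 to 13.10 in KO and 12.53 to 13.32 in WT. At an unadjusted p under 0.05, Tagln (-1.70) and Acta2 (-0.84) were lower and Krt5 (0.59) higher. No marker of either list was at 0. The part of fibroblast or basal RNA in the Smo and Gli2 differences was not tested.

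**Figure D3:**
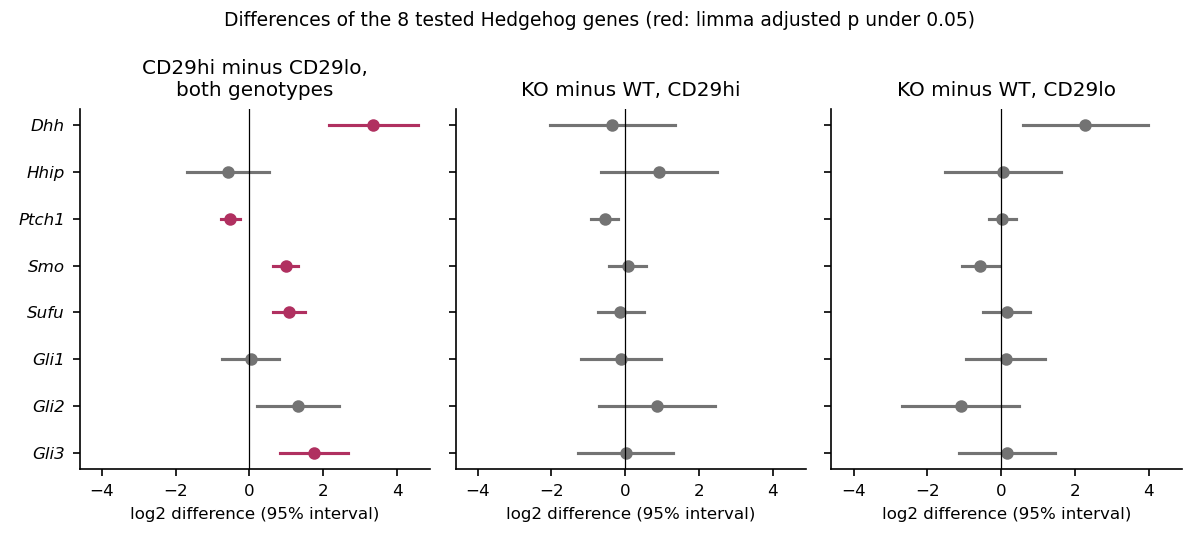
Log2 differences (x axes) of the 8 tested Hedgehog genes with 95% intervals from limma: CD29hi minus CD29lo over both genotypes (left), KO minus WT in CD29hi (middle) and in CD29lo (right); red marks an adjusted p under 0.05. Between the gates 5 genes pass, with Dhh at 3.36 (1.71 when signals below the background are raised to it, since Dhh was not measurable in CD29lo), Gli3 at 1.75, Sufu at 1.07, Smo at 0.98 and Ptch1 at -0.52, and between the genotypes none does.

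Read by genotype, the gate comparison called fewer genes than the average did. In WT cells Dhh and Sufu were higher in CD29hi, 2 of 8, where 8.19% of all genes were called and 3.96% were higher. In KO cells Smo was higher and Ptch1 lower, also 2 of 8, where 14.1% of all genes were called, 7.41% higher and 6.66% lower. The WT count became 0 without WT CD29hi replicate 2 and 1 without WT CD29hi replicate 1, WT CD29lo replicate 1 or either KO CD29hi array. Of the KO arrays, leaving out the first CD29hi replicate brought the KO count to 0, leaving out the second CD29hi or the first CD29lo replicate brought it to 1, and leaving out the second CD29lo replicate brought it to 4. The gate differences of Smo, Sufu, Gli3 and Dhh were above 0 in both genotypes, and no gene of the 8 passed the test of a difference between genotypes. Over the 8 arrays, which share the gate difference, Sufu correlated with Gli3 at 0.89, with Dhh at 0.89 and with Smo at 0.86. Ptch1 correlated with Gli2 at -0.82 and with Gli3 at -0.79. The Dhh value includes the CD29lo arrays, in all of which Dhh was at or below the background.

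The wider pathway was read from 84 further genes in 6 lists, of which 77 had a probe set and 63 could be tested. Averaged over genotypes, 14 were higher and 3 lower in CD29hi, against 12.2% and 10.8% of all genes tested, and the median difference of the 63 was 0. In WT cells 8 were higher and 2 lower (3.96% and 4.23% of all genes), and in KO cells 9 and 4 (7.41% and 6.66%). Between KO and WT, 0 of the 63 passed in any of the 4 comparisons, where 8, 7, 6 and 6 had an unadjusted p under 0.05 (CD29hi, CD29lo, average and interaction). Leaving out 1 array changed the WT count to as few as 4 (without WT CD29hi replicate 1 or 2; 5 without WT CD29lo replicate 1) and the KO count to as few as 4 (without KO CD29hi replicate 1; 6 without replicate 2).

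Among co-receptors, which present ligand to Patched, 2 of 4 tested were higher in CD29hi and 1 was lower (12.2% and 10.8% of all genes). Gas1 read 10.96 and 11.71 (WT) and 11.67 and 11.32 (KO) in CD29hi, against 7.59 and 8.96 (WT) and 7.43 and 8.87 (KO) in CD29lo. That is a gate difference of 3.20 ± 0.392, or 9.21-fold (limma adjusted p = 0.000804), with no overlap. Boc was higher in CD29hi by 1.62 ± 0.23 (3.07-fold, adjusted p = 0.00176), with 8.31 to 8.88 in CD29hi arrays and 6.69 to 7.2 in CD29lo arrays. Cdon, a relative of Boc, went the other way by -1.97 ± 0.274 (3.9-fold, adjusted p = 0.00157): it read 7.05 to 8.27 in CD29hi and 9.25 to 9.77 in CD29lo. All 3 passed in each genotype on its own.

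Of the genes for ligand processing and release, 4 of 9 could be tested and 1 passed, where 22.9% of all genes did. Scube3, a secreted protein of a family that helps release the ligand, was 8.97 to 9.64 in the CD29hi arrays and 5.88 to 6.37 in the CD29lo arrays, a difference of 3.15 ± 0.228 (8.91-fold, limma adjusted p = 7.67e-05).

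Of 8 regulators of Smoothened tested, 2 were higher in CD29hi, where 12.2% of all genes were. Gpr161, a ciliary receptor that keeps the pathway low, read 10.02 and 9.71 (WT) and 10.44 and 10.25 (KO) in CD29hi, against 5.90 and 6.94 (WT) and 4.11 and 6.54 (KO) in CD29lo, a difference of 4.23 ± 0.497 (limma adjusted p = 0.000661), with KO CD29lo replicate 1 below the background. Arrb1, an arrestin, differed by 1.72 ± 0.168 (3.29-fold, adjusted p = 0.00028). In the CD29lo arrays numbered 2, Gpr161 was higher than in those numbered 1 by 1.04 in WT and 2.43 in KO. The leading Gli3 probe set and Gas1 were higher there as well.

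Of 17 Gli kinases, ligases and partners, 2 were higher in CD29hi, a share near the 12.2% of all genes. Prkacb, a catalytic subunit of protein kinase A, which phosphorylates Gli proteins, differed by 0.92 ± 0.173 (1.89-fold, limma adjusted p = 0.00677). Kif7, a ciliary kinesin that acts on Gli proteins, differed by 2.00 ± 0.582 (adjusted p = 0.0398), with overlapping gates and 2 of the 4 CD29lo arrays below the background. Kif7 no longer passed when 1 of 5 arrays was left out: WT CD29hi replicate 2 (adjusted p = 0.128), KO CD29hi replicate 2 (0.106), WT CD29lo replicate 1 (0.112) or 2 (0.0697), or KO CD29lo replicate 1 (0.0994).

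Of 12 cilium genes, 2 were higher in CD29hi, where 12.2% of all genes were. Tulp3, which carries Gpr161 into the cilium, read 8.17 and 9.04 (WT) and 8.70 and 8.57 (KO) in CD29hi, against 5.46 and 6.90 (WT) and 4.76 and 6.13 (KO) in CD29lo, a difference of 2.81 ± 0.429 (7-fold, limma adjusted p = 0.00246). Ift122, a transport protein of the cilium, was higher by 1.52 ± 0.432, at least 2.23-fold because KO CD29lo was at the background (adjusted p = 0.0371). The Ift122 gates overlapped, and the call was lost in 7 of the 8 fits with 1 array left out, all but the one without WT CD29hi replicate 1 (adjusted p up to 0.129).

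Of 18 reported Gli target genes, 5 were higher in CD29hi and 2 lower, where 12.2% and 10.8% of all genes were; the share lower is near that of all genes. Osr1, a zinc finger factor, differed by 4.25 ± 0.549 (limma adjusted p = 0.00105), with 2 of the 4 CD29lo arrays below the background so that no fold is given, and Mycn, a growth regulator of the Myc family, by 3.30 ± 0.376, at least 5.02-fold (adjusted p = 0.00058), since Mycn was at or below the background in all 4 CD29lo arrays. Jag2, a Notch ligand, differed by 1.13 ± 0.241 (2.19-fold, adjusted p = 0.0118; 0.0566 without KO CD29hi replicate 1). Ccnd2, a G1 cyclin, differed by 1.62 ± 0.47 (adjusted p = 0.0399) and Bcl2, which blocks apoptosis, by 0.60 ± 0.141 (0.0174). The Ccnd2 call was lost without any one CD29hi array or WT CD29lo replicate 1 (adjusted p 0.084 to 0.126), and Bcl2 no longer passed when WT CD29hi replicate 1 was left out (0.0579), KO CD29hi replicate 1 (0.0725) or 2 (0.0546), or WT CD29lo replicate 1 (0.0542).

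The 2 targets lower in CD29hi were Bmi1, a Polycomb protein, at -1.47 ± 0.186 (2.78-fold, limma adjusted p = 0.000918), and Sfrp1, a secreted Wnt inhibitor, at -1.60 ± 0.296 (3.02-fold, adjusted p = 0.00627). Bmi1 read 8.48 to 8.73 in the CD29hi arrays and 9.61 to 10.60 in the CD29lo arrays. For Sfrp1 the direction turned with the mean of its 5 probe sets, to 0.62 (adjusted p = 0.213), so its probe sets disagree. Foxd2, a forkhead factor, was lower in CD29hi within KO cells, at -1.50 ± 0.417 (adjusted p = 0.0488), and that call was lost with any 1 array left out (adjusted p 0.0633 to 0.188). Ptch1 and Gli1, the targets most often used to read the pathway, were lower in CD29hi and near the background in both gates, respectively.

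**Figure D4:**
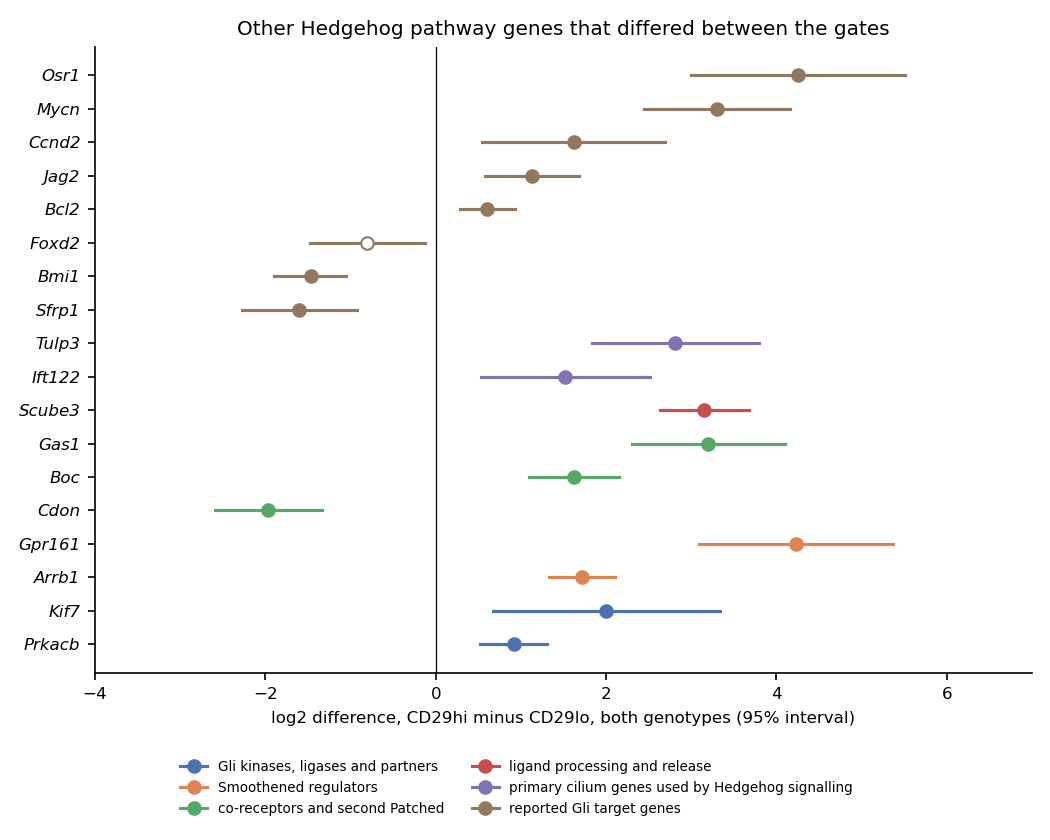
CD29hi minus CD29lo differences on the log2 scale (x axis), averaged over genotypes, with 95% intervals from limma, for the 18 further pathway genes called in any comparison (y axis), coloured by list. Filled points pass in the average (adjusted p under 0.05), and Foxd2, the open point, passes in KO cells alone; 14 genes lie right of 0 and Cdon, Bmi1 and Sfrp1, together with Foxd2, lie left.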

How the data were processed

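RNA from 8 sorted samples was measured on Affymetrix arrays. Per the labels' protocols, RNA was isolated with a PicoPure kit, amplified with a NuGEN FFPE kit and labelled with biotin. The deposited values are log2 signals per probe set, as their range of 0 to 14.42 shows; how the authors summarised and normalized them no source used here states, and nothing further was done to normalize them. The number of arrays limits the precision.

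Probe sets were named through the platform annotation of 2016, and those with several genes (932) or none (9211) of 45101 were left unnamed. Each gene was represented by its probe set of highest mean over the 8 arrays, and genes under the 25th percentile of probe set means (3.51) stayed out of the fit, leaving 14598 of 18194. The model, limma 3.58.1 under R 4.3.3, had the 4 group means (lmFit) and a variance trend (eBayes; 4 residual and 4.31 prior degrees of freedom). The 7 contrasts were 2-sided, with Benjamini-Hochberg adjustment across the genes tested and a threshold of 0.05. Biological replicates are labelled, but the mice behind each are not, so p-values measure the spread between these samples only. The fit was tested on simulated data.

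The background was the 95th percentile of 27 bacterial control probe sets in each array. Where a group had neither array above it, each array was raised to its background and the fold given as "at least". Promoters came from RefSeq through Python 3.11.15, and figures from matplotlib 3.10.9.

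The 9 genes, the 84 further pathway genes and the marker lists were chosen with earlier results of these data known. Named are all 9 genes, the further pathway genes past the threshold in any contrast, the 3 genes most correlated with each of the 9 that was above the background in at least 4 arrays, and Cebpb; single other genes were named after their values were seen. Alternatives were no filter or one at the 50th percentile, quantile normalization, the mean of all probe sets, every probe set tested, eBayes without a trend, values raised to at least 4, a fit of only the arrays compared, a replicate block, and each array left out in turn. Leaving out both CD29lo arrays numbered 2 was added after the data had been seen.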

Additional observations from a re-analysis of the deposited data

How the results depend on the processing

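The count of Hedgehog genes called between KO and WT was 0 under every setting run, and so was that of the 63 further pathway genes. Between the gates in WT cells the Hedgehog count of 2 became 1 with the filter at the 50th percentile, 1 with values raised to at least 4, 1 with only the arrays compared and 0 with the mean of all probe sets. The averaged count of 5 became 2 with the mean of all probe sets. Smaller changes of these counts are not listed. Within KO cells Sufu also passed with the filter at the 50th percentile (limma adjusted p = 0.0461) and without a trend (0.0499). In the same cells Gli3 passed with the mean of all probe sets (0.028). With each array left out in turn the Hedgehog counts ran from 0 to 2 in WT, 0 to 4 in KO and 4 to 6 averaged, and those of the further genes from 4 to 10, 4 to 14 and 13 to 17. The cause of these shifts was not tested.

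Dhh and Smo passed in the averaged gate comparison under every setting that gave them a value. Dhh was not tested with the mean of all probe sets or the filter at the 50th percentile. Of the 18 further pathway results, 11 kept their direction and call under all settings. Without a trend in eBayes, Kif7 (adjusted p = 0.0716), Ift122 (0.0541) and Ccnd2 (0.0947) did not pass between the gates. With both CD29lo arrays numbered 2 left out, Kif7 (0.0555), Ift122 (0.122) and Bcl2 (0.0596) did not.

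Directions turned mostly for differences near 0. With the mean of all probe sets the KO difference became -0.14 for Ptch1, -0.26 for Sufu and -0.39 for Gli3 in CD29lo, and -0.03 for Smo and 0.18 for Sufu in CD29hi, and the averaged gate difference of Sfrp1 became 0.62. With both CD29lo arrays numbered 2 left out, Gli1 gave -0.24 for KO against WT in CD29lo and gate differences of -0.08 in WT, 0.04 in KO and -0.02 averaged. With each array left out in turn, KO differences in CD29hi ran from -1.38 to 0.67 for Dhh, -0.07 to 1.90 for Hhip, -0.12 to 0.23 for Smo, -0.26 to 0.01 for Sufu, -0.51 to 0.28 for Gli1 and -0.15 to 0.16 for Gli3. In CD29lo they ran from -0.11 to 0.16 for Ptch1, -0.34 to 0.41 for Hhip, -0.10 to 0.35 for Gli1 and -0.57 to 0.89 for Gli3. Gate differences ran from -0.32 to 0.04 for Hhip in KO, -0.24 to 0.54 in WT, -0.23 to 0.04 in KO and -0.17 to 0.22 averaged for Gli1, and -0.12 to 0.79 for Gli2 in WT.

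Replicate numbers are shared by the groups, but the labels do not say that a number marks a paired set. Deviations of same-numbered arrays correlated at 0.00563 between WT and KO in CD29hi, 0.321 in CD29lo, 0.0952 between the gates in WT and 0.0236 in KO. With the replicate number as a block, Gli2 passed between the gates in KO (2.30, limma adjusted p = 0.0401), Foxd2 did not (-1.50, adjusted p = 0.0578), the averaged Hedgehog count stayed at 5, and 3650 genes were called in place of 3345. It changed no other call of the 9 genes.

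Ihh, Hhip and Gli1 had signals too near the background to show a difference, and the precision of the KO differences is given by their intervals.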

Other observations

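The genes whose signal followed each Hedgehog gene most closely over the 8 arrays are given as a description. All arrays share the gate difference, so many genes correlate highly. For Gli2 they were Ank2 (r = 0.996), Macrod2 (0.988) and Evc2 (0.978), the last a ciliary partner of Smoothened and the only gene of the pathway lists among these. For Smo they were Mtbp (0.994), Vangl2 (0.987), a planar polarity gene, and Katnal1 (0.986). For Sufu they were Gtf2f2 (0.993), Asb2 (0.991) and Il17b (0.988), and for Gli3 Kdm6b (0.984), Mypop (0.98) and Mtap (0.977). For Dhh they were Arhgap25 (0.971), Six5 (0.965) and Lgals7 (0.96), but Dhh was at or below the background in every CD29lo array. For Ptch1 they were Ctps2 (0.99), Chmp2b (0.982) and Lsm4 (0.972). Genes correlated with r over 0.9 numbered 540 for Sufu, 456 for Smo, 338 for Gli3, 180 for Gli2, 108 for Ptch1 and 73 for Dhh. For Gli1, whose signal is near the background, they numbered 4, with Spaca7 (0.985), Grin2b (0.983) and Kbtbd4 (0.912) highest.

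Other cell types were read in the same arrays. Between the gates, averaged over genotypes, 0 of 8 endothelial and 0 of 4 pericyte markers passed, where 22.9% of all genes tested did. In these lists 0 and 1 had an unadjusted p under 0.05 in limma. Of 5 blood markers tested 1 was higher in CD29hi, and of 3 adipocyte markers 1 was lower (12.2% and 10.8% of all genes). Of the sort antigens, Cd24a was lower in CD29hi by a log2 difference of -0.62 (limma adjusted p = 0.000378), and Itgb1, which encodes CD29, differed by 0.27 (adjusted p = 0.0615).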
